A study of Sus scrofa with 9 samples.

Results

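The MAP kinase phosphatases are enzymes of the dual-specificity phosphatase (DUSP) family that switch off MAP kinases, and the 10 members followed here were taken by symbol from a list of DUSP1, DUSP2, DUSP4, DUSP5, DUSP6, DUSP7, DUSP8, DUSP10, DUSP14 and DUSP16. All 10 were found among the 19535 genes of the count table, and all 10 had enough counts to be tested. Porcine valvular interstitial cells (PVICs), the fibroblast-like cells of the aortic valve leaflet, had been isolated from wild type pigs aged 4 to 5 months. The control group was kept in DMEM for 3 days. The OIM group received osteogenic medium with insulin, ascorbic acid at 50 µg/mL and sodium dihydrogen phosphate at 2 mmol/L, which is used to induce calcium deposition, and the bFGF group received the same OIM with 50 ng/mL basic fibroblast growth factor. No group received bFGF without OIM. Each group had 3 libraries, and the labels do not say whether these came from separate animals or cultures, so the p-values measure only the spread between these libraries.

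Signals from growth factor receptors pass through RAS, RAF and MEK to the ERK group of MAP kinases, whereas stress and cytokines act mainly through the MAP kinases JNK and p38. A MAP kinase is active when a threonine and a tyrosine in its activation loop both carry phosphate, and the dual-specificity phosphatases remove both. Several of these phosphatases are themselves transcribed in response to ERK signalling and so form a negative feedback loop. DUSP1, DUSP2, DUSP4 and DUSP5 are nuclear, DUSP6 and DUSP7 are cytoplasmic, and DUSP8, DUSP10 and DUSP16 are found in both compartments. DUSP5, DUSP6 and DUSP7 prefer ERK, DUSP8, DUSP10 and DUSP16 prefer JNK and p38, and DUSP1, DUSP2 and DUSP4 act on several MAP kinases. DUSP14 is a small atypical member without the kinase-binding domain of the others and belongs to none of these classes here.

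What joins the 10 genes is the catalytic signature, in which a cysteine attacks the phosphate. The 24 coding bases of this signature are shown for each member, read on the coding strand from the RefSeq annotation of Sscrofa11.1, with the codon of the catalytic cysteine in capitals.
DUSP1: cacTGCcaggcgggcatttcccga
DUSP2: catTGCcaggcaggcatctcacgc
DUSP4: cacTGCcaggctggcatctcccgc
DUSP5: cacTGTgaggctgggatctcccgc
DUSP6: catTGCttggccggcatcagccgc
DUSP7: cacTGCctggcaggcatcagccgc
DUSP8: cacTGTctggccggcatctcccgc
DUSP10: cacTGCcaggcgggggtgtcccgc
DUSP16: cacTGCttggcagggatctctcgc
DUSP14: cacTGTgccgcaggggtgagccgc

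The cysteine codon was TGC in 7 members and TGT in DUSP5, DUSP8 and DUSP14. The cytoplasmic pair DUSP6 and DUSP7 shared 21 of the 24 bases. DUSP4 also shared 21 bases with each of DUSP1, DUSP2, DUSP5 and DUSP8. DUSP14 was the least alike, with at most 17 bases shared with any other member, and its coding sequence had 198 codons against 311 in DUSP2, the next shortest, and 651 in DUSP16, the longest.

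The libraries held 57075793 to 64723837 counts on genes in control, 57682710 to 67371523 in OIM and 46773376 to 48270827 in bFGF. Levels are given as CPM, counts scaled to the TMM-normalized library size. A gene was called when edgeR's quasi-likelihood test gave an adjusted p no higher than 0.05 and its log2 fold change reached 0.5 in either direction (the fold limit), with the adjustment over all 13662 genes tested, and SE is the standard error of the log2 fold change. All 10 interstitial cell and fibroblast markers listed were above 1 CPM in every group. Their summed level was 63413 to 68629 CPM in control, 60182 to 63371 CPM in OIM and 36538 to 36890 CPM in bFGF, and against OIM bFGF lowered COL1A1, COL1A2, COL3A1 and DCN and raised VIM and S100A4. Of the 7 endothelial markers listed, VWF was under 1 CPM in every group and TEK and KDR were under 1 CPM in control and OIM, and the summed level of the list was 72.5 to 74.4 CPM in control, 86.8 to 87.8 CPM in OIM and 166 to 177 CPM in bFGF. Most of this sum was ERG, an ETS transcription factor, with group means of 51.5, 66.8 and 137 CPM, and of the 7 markers bFGF raised 5 against OIM, with VWF and TIE1 not called. The 8 macrophage and blood markers summed to 15.2 to 18.8 CPM in control, 15.8 to 17.3 CPM in OIM and 9.76 to 10.6 CPM in bFGF, with HBB at 0 counts in every library, and of the 6 tested CD14 and CD163 were called lower in bFGF than in OIM. Most of this sum was CD14, with group means of 13.7, 13.5 and 7.68 CPM. Only 2 of the 8 averaged above 1 CPM in each group, and PTPRC, CD68 and CSF1R were under 1 CPM in all. The 6 smooth muscle and myofibroblast markers summed to 9906 to 10417 CPM in control, 10165 to 13449 CPM in OIM and 1636 to 1819 CPM in bFGF. The part of these shifts in the results on the phosphatases was not tested, and in bulk RNA fewer cells of a type and less RNA per cell cannot be told apart.

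bFGF changed 7 of the 10 phosphatases against OIM. DUSP5, DUSP4, DUSP6, DUSP2 and DUSP10 rose, and DUSP8 and DUSP1 fell. DUSP7, DUSP16 and DUSP14 were not called. Over all genes tested, 36.2% were called in this comparison, with 17.7% higher and 18.4% lower. The median log2 fold change was 0.70 over the 10 members and -0.0029 over all genes tested. For all 10 members, the 3 bFGF libraries lay on one side of the 3 OIM libraries, which was so for 72.1% of all genes tested.

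**Figure D1:**
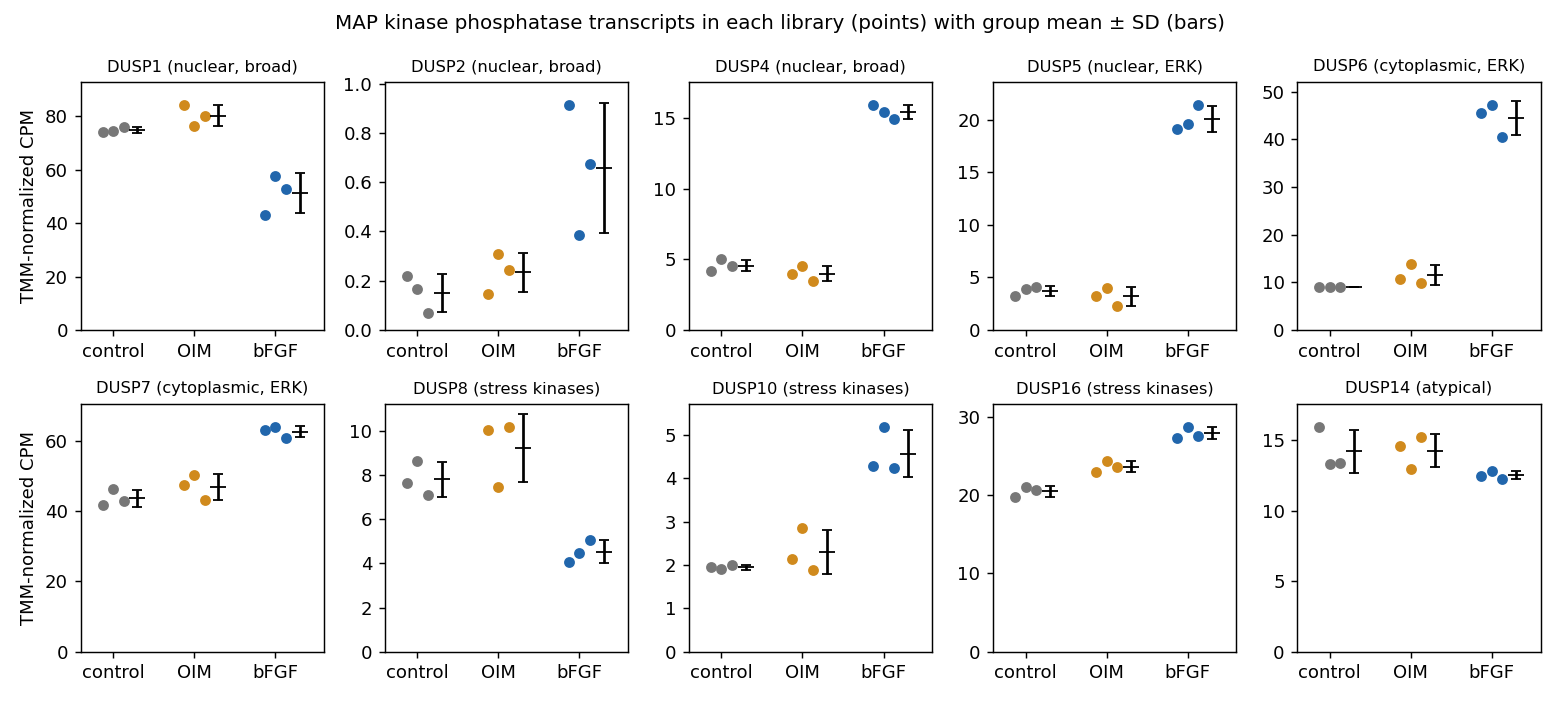
Each panel plots 1 phosphatase, with the TMM-normalized CPM on an axis from 0, 1 point per library (3 control, 3 OIM, 3 bFGF) and the group mean ± SD as a bar. DUSP4, DUSP5 and DUSP6 stood at 14.9 to 47.2 CPM in the bFGF libraries and at 2.29 to 13.8 CPM in the others, whereas DUSP1 and DUSP8 were lowest in bFGF.

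Among the nuclear members, DUSP5, which holds and dephosphorylates ERK in the nucleus, had the largest change of the 10. Its level was 3.19, 3.86 and 4.05 CPM in the control libraries, 3.25, 4.02 and 2.29 CPM in the OIM libraries and 19.1, 19.6 and 21.4 CPM in the bFGF libraries. The lowest bFGF library thus lay far above the highest of the other 6, and control and OIM overlapped. DUSP5 rose 6.26-fold with bFGF, which is 2.65 on the log2 scale (SE 0.15, adjusted p = 2.74e-12 in edgeR's test). By size of increase it ranked 147 of 13662 genes in bFGF against OIM.

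DUSP5 lies on chromosome 14 from 120906340 to 120919398 of Sscrofa11.1, on the plus strand, with 4 exons. The 250 bases before its annotated start (chr14:120906090-120906339, plus strand, RefSeq) are shown because DUSP5 had the largest rise and because this window holds 2 CArG boxes, the element bound by serum response factor, which are printed in capitals.
DUSP5: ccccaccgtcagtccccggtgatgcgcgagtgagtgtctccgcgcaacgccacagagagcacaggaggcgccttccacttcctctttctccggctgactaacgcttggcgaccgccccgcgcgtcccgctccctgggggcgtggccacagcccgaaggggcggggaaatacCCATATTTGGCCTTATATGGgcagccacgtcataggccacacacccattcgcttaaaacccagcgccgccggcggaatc

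The 2 boxes adjoin, one from 79 to 70 and the other from 69 to 60 bases before the start. A CArG box, searched on both strands, was present in 1.34% of 19531 promoter windows of the same length, and in no other of the 10 members. These matches describe letters in the sequence, and binding was not measured. The window of DUSP1 (chr16:51458012-51458261) precedes its curated model but lies within the gene, which starts at 51457924. The window of DUSP7 had 29.6% G and C, against 56.8% to 88.0% in the other members. Whether these windows hold the promoters was not tested, so the absence of a motif there says little.

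DUSP4, a nuclear phosphatase for ERK, JNK and p38, was at 4.16, 5.00 and 4.52 CPM in control, 3.97, 4.50 and 3.47 CPM in OIM, and 15.9, 15.5 and 14.9 CPM in bFGF. Every bFGF library was above every other library, and the bFGF libraries differed little among themselves. The increase was 3.88-fold against OIM (log2 fold change 1.95, SE 0.11, adjusted p = 6.62e-12 in edgeR's test).

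DUSP2, also nuclear and best known from activated immune cells, had few counts here. It had 4 to 12 counts per library in control (0.220, 0.165 and 0.0670 CPM), 8 to 20 in OIM (0.148, 0.307 and 0.245 CPM) and 20 to 49 in bFGF (0.914, 0.384 and 0.673 CPM). The bFGF libraries were widely spread but none lay under an OIM or control library, and DUSP2 rose 2.78-fold (log2 fold change 1.47, SE 0.53, adjusted p = 0.0182 in edgeR's test). This call was lost without bFGF replicate 1, where the log2 fold change was 1.16, and without OIM replicate 1, where it was 1.24.

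DUSP1, the immediate early phosphatase that mainly restrains p38 and JNK and is induced by stress and glucocorticoids, went the other way from the nuclear members above. It was at 74.0, 74.3 and 76.0 CPM in control, 84.3, 76.4 and 80.0 CPM in OIM and 43.1, 57.8 and 52.9 CPM in bFGF. All 3 bFGF libraries were lower than the other 6, with bFGF replicate 1 the lowest. The level in bFGF was 0.639 times that in OIM (log2 fold change -0.65, SE 0.071, adjusted p = 1.05e-07 in edgeR's test). When TMM was replaced by the plain library totals, a scaling that moved the median of all genes by 0.22 on the log2 scale, the log2 fold change was -0.43 and DUSP1 was not called.

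DUSP6 is the cytoplasmic phosphatase specific to ERK and a widely used readout of FGF receptor signalling. The control libraries were almost alike, with 8.97, 8.91 and 9.01 CPM, and the OIM libraries had 10.6, 13.8 and 9.89 CPM. In bFGF it reached 45.5, 47.2 and 40.4 CPM, far above both other groups. DUSP6 rose 3.87-fold with bFGF against OIM (log2 fold change 1.95, SE 0.097, adjusted p = 5.48e-13 in edgeR's test). DUSP4 and DUSP6 therefore had nearly the same log2 fold change, with 95% intervals of 1.71 to 2.19 and 1.75 to 2.15.

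DUSP6 lies on chromosome 5 from 93303058 to 93307510 on the plus strand, with 3 exons. Its 250 bases before the annotated start (chr5:93302808-93303057, plus strand, RefSeq) are shown for comparison with DUSP5, since both genes are ERK-selective and rose with bFGF.
DUSP6: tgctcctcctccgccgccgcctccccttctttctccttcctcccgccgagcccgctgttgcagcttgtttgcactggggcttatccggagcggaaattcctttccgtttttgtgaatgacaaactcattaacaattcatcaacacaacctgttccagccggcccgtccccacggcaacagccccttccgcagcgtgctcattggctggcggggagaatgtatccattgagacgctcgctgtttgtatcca

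None of the motifs searched was in this window: the CArG box, the cyclic AMP response element (TGACGTCA), the AP-1 element (TGANTCA), the ETS element (CCGGAA) and the GC box (GGGCGG), each on both strands. They were present in 1.34%, 1.76%, 5.05%, 14.1% and 47.2% of all windows. The window of DUSP4 held 3 GC boxes and none of the other motifs. The ETS element was found once in DUSP8, DUSP10 and DUSP16.

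DUSP7, the other cytoplasmic ERK phosphatase, had 41.6, 46.3 and 42.9 CPM in control, 47.3, 50.1 and 43.0 CPM in OIM, and 63.1, 64.0 and 60.7 CPM in bFGF. The bFGF libraries lay apart from the OIM libraries, with a difference of 0.42 on the log2 scale (SE 0.057, adjusted p = 2.02e-06 in edgeR's test), which was smaller than the fold limit. Scaled to the plain library totals it was 0.64 and was called.

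The 3 phosphatases selective for stress kinases did not move together. DUSP10, which acts on p38 and JNK, had 1.94, 1.90 and 2.01 CPM in control, 2.14, 2.86 and 1.89 CPM in OIM and 4.27, 5.19 and 4.23 CPM in bFGF. It rose 1.98-fold with bFGF against OIM (log2 fold change 0.99, SE 0.18, adjusted p = 7.10e-05 in edgeR's test). DUSP8, a phosphatase known best from brain and heart that prefers JNK and p38, had 7.67, 8.66 and 7.12 CPM in control, 10.1, 7.48 and 10.2 CPM in OIM and 4.06, 4.48 and 5.08 CPM in bFGF. Every bFGF library was under every other library, and the level was 0.492 times that in OIM (log2 fold change -1.02, SE 0.14, adjusted p = 1.33e-06 in edgeR's test). DUSP16, which shuttles between nucleus and cytoplasm and prefers JNK, had 19.7, 21.1 and 20.7 CPM in control, 22.9, 24.3 and 23.6 CPM in OIM and 27.3, 28.7 and 27.5 CPM in bFGF. Its 3 groups did not overlap and stood in that order, and its difference of 0.24 between bFGF and OIM (adjusted p = 0.00206 in edgeR's test) was under the fold limit.

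DUSP14, the atypical member, had 15.98, 13.3 and 13.4 CPM in control, 14.6, 12.99 and 15.2 CPM in OIM and 12.5, 12.8 and 12.3 CPM in bFGF. Its log2 fold change in bFGF against OIM was -0.19 with a 95% interval of -0.38 to 0.0018 (adjusted p = 0.0742 in edgeR's test), and with library totals alone the sign turned, to 0.034. The gene overlaps SYNRG on the opposite strand, which had a log2 fold change of -0.31 in the same comparison (adjusted p = 5.35e-06 in edgeR's test), and DUSP10 overlaps the non-coding LOC110255634. Whether the counting used strand is not given in the sources used here, so reads of such pairs may not be separated.

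bFGF was also compared with control, which shows the joint effect of OIM and bFGF and uses the same bFGF libraries. Here 8 of the 10 members were called, 6 higher and 2 lower, and 39.0% of all genes tested were called, with 18.9% higher and 20.0% lower. For all 10 members the bFGF and control libraries did not overlap, as was so for 73.7% of all genes tested. DUSP5, DUSP6, DUSP2, DUSP4 and DUSP10 rose by 2.44, 2.31, 2.12, 1.76 and 1.23 on the log2 scale, and DUSP7 by 0.52 (adjusted p = 9.41e-08 in edgeR's test). DUSP7 just passed the fold limit and was not called without control replicate 1, where the value was 0.49. DUSP8 fell by 0.78 and DUSP1 by 0.55, and DUSP1 was not called without bFGF replicate 1, where the log2 fold change was -0.44, or with library totals alone, where it was -0.32. DUSP16 had a difference of 0.44 (adjusted p = 2.67e-06 in edgeR's test), smaller than the fold limit, and with library totals alone it was called at 0.67. DUSP14 had a difference of -0.18 (adjusted p = 0.0777 in edgeR's test), and with library totals alone 0.040.

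**Figure D2:**
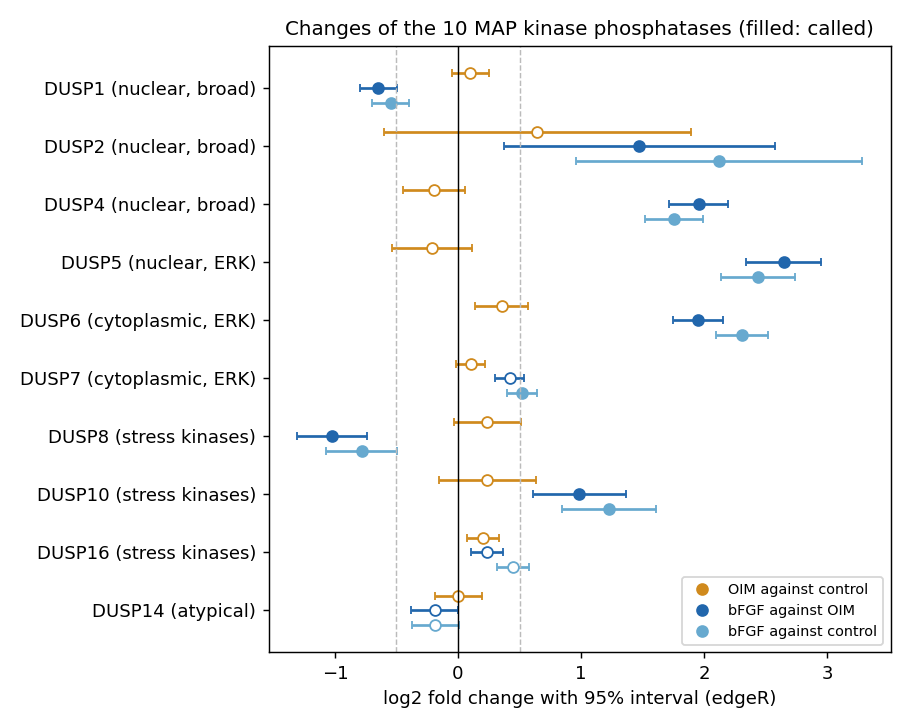
Points give the log2 fold change of each phosphatase from edgeR in OIM against control, bFGF against OIM and bFGF against control, with 95% intervals. Filled points were called and open points were not, dashed lines mark the fold limit of 0.5 in each direction, and all 10 points of OIM against control are open.

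None of the phosphatases was called with OIM alone. Against control, 0 of the 10 members passed edgeR's test with the fold limit, 0 passed in DESeq2, and 0 had an unadjusted p under 0.05 with the fold limit. Of all genes tested, 2.35% were called in this comparison, with 1.49% higher and 0.864% lower. The median log2 fold change was 0.15 over the members and -0.0019 over all genes tested. The members ranged from -0.21 in DUSP5 to 0.65 in DUSP2, whose 95% interval ran from -0.60 to 1.89. DUSP14 had a log2 fold change of 0.0040, with an interval of -0.18 to 0.19. Without the fold limit, 2 members passed in edgeR, DUSP6 and DUSP16, both higher, and 13.6% of all genes tested passed, 7.69% as higher and the rest as lower. DUSP6 was higher in every OIM library than in every control library, by 0.36 (SE 0.10, adjusted p = 0.0250 in edgeR's test). DUSP16 was higher by 0.21 (SE 0.062, adjusted p = 0.0329 in edgeR's test), also without overlap. Groups without overlap were found in 3 of the 10 members, the third being DUSP1, and in 28.8% of all genes tested.

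The value of DUSP6 in OIM rested partly on OIM replicate 2. That library was the highest of its group in 7 of the 10 members, DUSP2, DUSP4, DUSP5, DUSP6, DUSP7, DUSP10 and DUSP16, and the lowest in the other 3. Without it the difference of DUSP6 between OIM and control was 0.20 (adjusted p = 0.158 in edgeR's test), and that of DUSP16 was 0.18 (adjusted p = 0.0948 in edgeR's test). Of the 26 listed genes that ERK induces, 21 were highest of the OIM group in that library, 1 (FOSL2) was lowest and 4 lay between. FOSL1, FOSL2 and ETV4 were named here after their values were seen. FOSL1, a subunit of the transcription factor AP-1, was at 31.6 CPM there against 21.4 and 19.6 CPM in OIM replicates 1 and 3. ETV4, an ETS transcription factor induced by FGF signalling, was at 22.4 CPM there against 15.6 and 13.5 CPM. All 6 smooth muscle markers were lowest of the OIM group there, such as MYH11, smooth muscle myosin, at 182 CPM against 325 and 337 CPM, and ACTA2, smooth muscle actin, at 6852 CPM against 9210 and 9286 CPM. OIM replicate 3 was lowest of the group in 21 of the 26 ERK-induced genes and highest in 0. In other lists OIM replicate 2 was highest in 4 and lowest in 10 of 21 ERK cascade genes. It was so in 6 and 8 of 18 stress kinase genes. Among 14 other dual-specificity phosphatases the counts were 4 and 5, and among 9 remaining phosphatases 6 and 0. The same counts over all genes were not made. Mean chi-square per gene was 18.7 and 18.8 for the OIM pairs with replicate 2 and 5.80 for the other pair. What sets OIM replicate 2 apart was not tested. It was also the deepest library of the series, and the 7 members called in bFGF against OIM were all called without it.

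To compare levels between genes, CPM was divided by the length of the exon sequence in kb. On this scale DUSP1 was the most abundant member in every group, with 35.2 CPM per kb in control, 37.8 in OIM and 24.1 in bFGF. In control it was followed by DUSP7 (6.09), DUSP16 (3.23), DUSP6 (3.18), DUSP14 (2.58), DUSP8 (1.85), DUSP5 (1.52), DUSP4 (0.855), DUSP10 (0.460) and DUSP2 (0.0868 CPM per kb). Only DUSP16 and DUSP6 were neighbours whose control libraries overlapped. In OIM the libraries of DUSP6 and DUSP16, of DUSP14 and DUSP8, and of DUSP4 and DUSP10 overlapped. In bFGF, DUSP6 was second with 15.8 CPM per kb, followed by DUSP7 with 8.74 and DUSP5 with 8.22, whose libraries overlapped, as did those of DUSP10 and DUSP8 with 1.08 and 1.07.

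**Figure D3:**
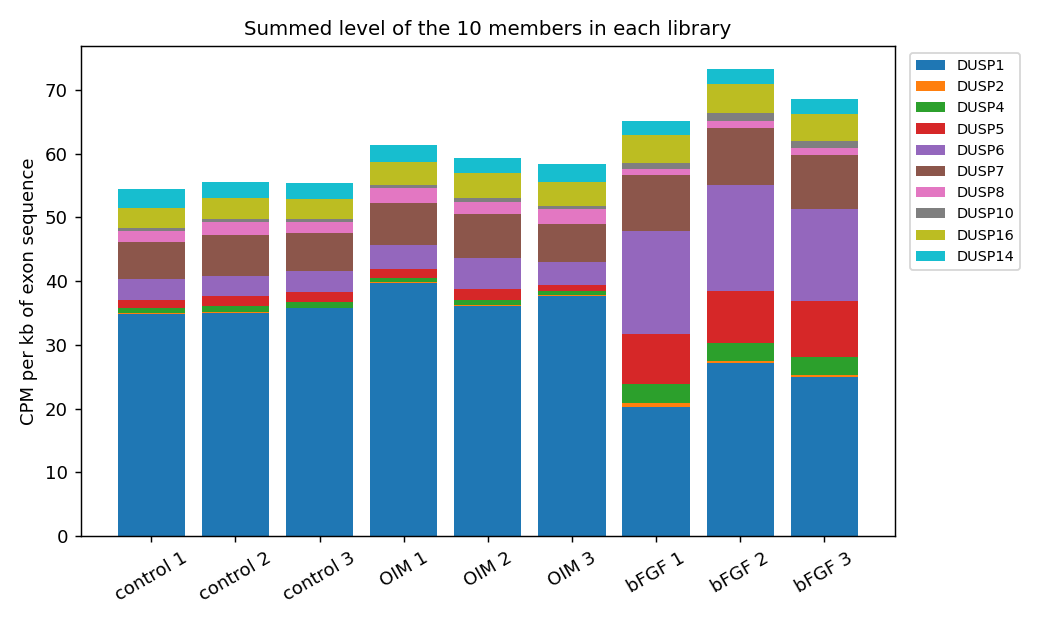
Bars give, for each of the 9 libraries, the level of the 10 members in CPM per kb of exon sequence, stacked by gene from 0. The summed level was 54.4 to 55.5 CPM per kb in control, 58.3 to 61.4 in OIM and 65.2 to 73.2 in bFGF, and in bFGF the block of DUSP1 was smaller and those of DUSP5 and DUSP6 were larger.

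The nuclear and cytoplasmic classes were set side by side as shares of this length-scaled level, as a description without a test. The 4 nuclear members summed to 37.7 ± 0.629 CPM per kb in control, 40.0 ± 1.67 in OIM and 35.6 ± 3.53 in bFGF (SD, n = 3). The 2 cytoplasmic members summed to 9.27 ± 0.320 CPM per kb in control, 10.6 ± 1.21 in OIM and 24.5 ± 1.497 in bFGF (SD, n = 3). Nuclear members thus made up 80.3% ± 0.548 of both classes in control, 79.1% ± 2.25 in OIM and 59.2% ± 3.00 in bFGF (SD, n = 3). The nuclear sum is mostly DUSP1, which held 64.0% of the level of all 10 members in control, 63.4% in OIM and 34.9% in bFGF. Without DUSP1 and DUSP6, the most abundant of each class over all 9 libraries, the nuclear share was 28.8% in control, 24.9% in OIM and 56.8% in bFGF. Without DUSP1 and DUSP7, the most abundant in control, it was 43.5%, 34.9% and 42.2%, so the order of the groups rests on which members are counted. Within the nuclear class DUSP2, DUSP4 and DUSP5 were called higher in bFGF than in OIM and DUSP1 was called lower, and within the cytoplasmic class only DUSP6 was called.

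The division by substrate was described in the same way. The 3 ERK-selective members summed to 10.8 ± 0.452 CPM per kb in control, 11.9 ± 1.56 in OIM and 32.7 ± 1.07 in bFGF (SD, n = 3). The 3 members selective for stress kinases summed to 5.54 ± 0.245, 6.45 ± 0.154 and 6.55 ± 0.268 CPM per kb in the same order. The ERK-selective share of both classes was 66.1% ± 0.539 in control, 64.7% ± 3.49 in OIM and 83.3% ± 0.555 in bFGF (SD, n = 3), and the 3 bFGF libraries, at 82.8% to 83.9%, did not overlap the others, at 61.4% to 68.3%. Without DUSP6 and DUSP16, the most abundant of each class over all 9 libraries, this share was 76.7%, 74.1% and 88.8%, and without DUSP7 and DUSP16, the most abundant in control, it was 67.1%, 65.9% and 91.8%. In bFGF against OIM, 2 of 3 ERK-selective members were called higher, and of the stress-kinase-selective members 1 was called higher and 1 lower, so 2 of 3 were called in each class, where 17.7% of all genes tested were called higher and 18.4% lower.

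The other genes of the pathway were counted from lists in the same fit. The 21 genes listed for the ERK cascade ran from RAS to the RSK kinases. They included MAPK7 and MAP2K5 of the separate ERK5 module. Of the 21, bFGF raised 2 and lowered 2 against OIM, a smaller share than the 36.2% called among all genes tested. Without the fold limit, 4 were higher and 11 lower. For 18 of the 21 the bFGF and OIM libraries did not overlap, as for 72.1% of all genes tested. Neither difference in share was tested. MAPK7, which encodes ERK5, averaged 218 CPM with bFGF against 83.9 CPM with OIM alone (log2 fold change 1.38), and RPS6KA1, an ERK-activated kinase, had a log2 fold change of 1.03. MAP2K1, which encodes MEK1, and the scaffold KSR1 fell by 0.90 and 0.80. Of 18 genes of the JNK and p38 pathways, bFGF raised 3 and lowered 1 against OIM. Of all genes tested, 17.7% were called higher and 18.4% lower. MAP3K5, MAP2K3 and MAP3K4, which encode activating kinases, rose by 1.04, 0.77 and 0.53. MAPK13, a p38 isoform with at most 0.971 CPM in any library, fell by 1.74.

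Of 26 genes that ERK induces early or with a delay, bFGF raised 16 and lowered 4 against OIM, with a median log2 fold change of 1.12, where 17.7% of all genes tested were called higher and 18.4% lower. IL11, a cytokine, averaged 374 CPM with bFGF against 31.2 CPM with OIM alone (log2 fold change 3.57, SE 0.12, adjusted p = 1.23e-15 in edgeR's test). ETV5, an ETS factor that FGF signalling induces, and EGR2, an early growth response factor, rose by 2.72 and 2.03. FOSB, an AP-1 subunit, fell by 2.55. The other genes called lower were ATF3, a stress-induced factor, FOSL2 and PHLDA1, with log2 fold changes of -1.59, -0.69 and -0.53, and these were named after their values were seen. With library totals alone FOSL2 and PHLDA1 were not called, at -0.47 and -0.31. In OIM against control only IL11 and CCND1 of this list were called, with log2 fold changes of 1.25 and 0.57 and 2.35% of all genes tested called, and CCND1 encodes cyclin D1. Without OIM replicate 2, 1 gene of the list was called higher and 1 lower.

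**Figure D4:**
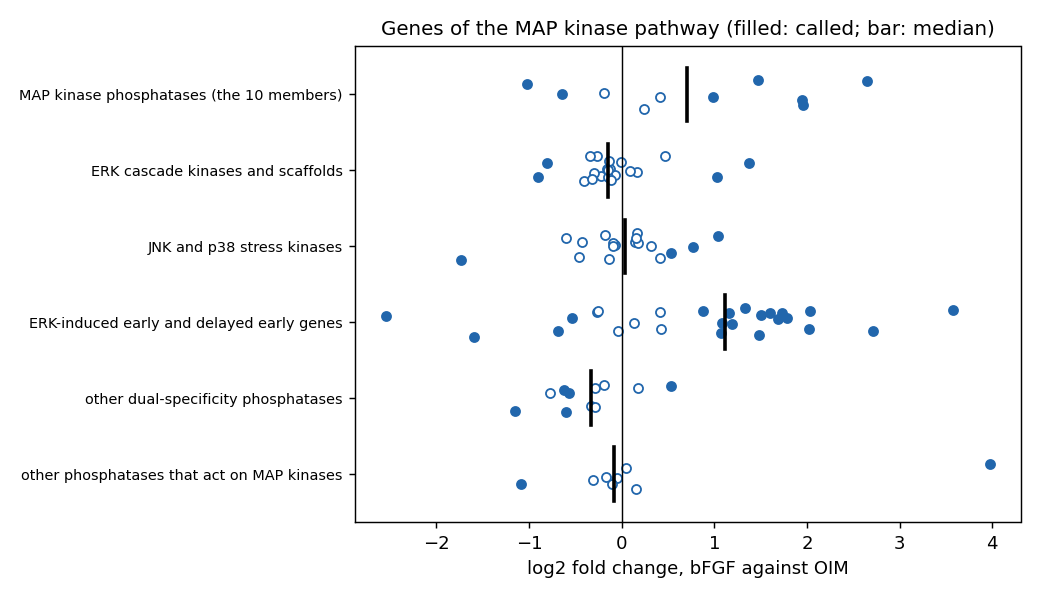
Each point is 1 tested gene, placed by its log2 fold change in bFGF against OIM and grouped by list, with the vertical position within a list jittered. Filled points were called, black bars are medians, and the medians were 0.70 for the 10 phosphatases, 1.12 for the ERK-induced genes, and between -0.33 and 0.035 for the 4 other lists.

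Further genes of phosphatase families were followed as a background, and not all of them encode active enzymes. Of 17 other dual-specificity phosphatases listed, 11 were tested, of which bFGF raised 1 and lowered 4 against OIM, where 36.2% of all genes tested were called. The number lowered was 2 without bFGF replicate 2, 2 without bFGF replicate 3 and 1 without OIM replicate 3. DUSP3, an atypical member that acts on ERK and JNK, averaged 45.5 CPM with bFGF against 69.1 CPM with OIM alone (log2 fold change -0.60, SE 0.050, adjusted p = 1.35e-09 in edgeR's test). STYXL1, DUSP23 and DUSP19 fell by 1.15, 0.62 and 0.57 from at most 2.78 CPM on average in OIM. DUSP9, the remaining cytoplasmic ERK phosphatase, stayed between 0.112 and 0.614 CPM over all libraries and was not called. DUSP18, named after its value was seen, rose by 0.54, and no gene of this list was called higher without bFGF replicate 3, without OIM replicate 3 or with all libraries thinned to equal depth. With library totals alone none of the 4 was called lower. Of the 8 tested genes for other phosphatases that act on MAP kinases, PTPN7 rose by 3.98 on the log2 scale, from 0.0643 to 1.09 CPM, and PTPRR fell by 1.08, and both encode tyrosine phosphatases that bind MAP kinases. In OIM against control, edgeR called 0 genes in the 4 lists other than that of the ERK-induced genes, as did DESeq2. In edgeR an unadjusted p under 0.05 was found for 3 of 21 genes of the ERK cascade, 6 of 18 of the stress kinase pathways, 3 of 11 other dual-specificity phosphatases and 1 of 8 remaining phosphatases, and for 26.2% of all genes tested. Of these 2, 4, 0 and 1 passed the adjusted p without the fold limit, as did 13.6% of all genes tested.

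The profiles most like those of 3 members were sought among the other 13661 genes tested, by Euclidean distance between log2 CPM values centred on each gene's mean over the 9 libraries. Nearest to DUSP6 were NCAPH, PLK1, CNTN3, MYBL2 and HELLS, at distances of 0.245 to 0.294 and with log2 fold changes of 1.87 to 2.08 in bFGF against OIM. NCAPH, PLK1, MYBL2 and HELLS are known from chromosome condensation, mitosis, cell cycle transcription and chromatin remodelling. Nearest to DUSP4 were LOC110261487, F5, LOC100525396, LOC100521659 and EDNRB (0.236 to 0.342), and nearest to DUSP1 were ATXN7, DNASE1L1, SLC27A4, AGPAT4 and PCBP4 (0.214 to 0.242). The points share libraries and groups, so these distances are a description.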

How the data were processed

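Total RNA of PVICs was sequenced in 3 libraries for each of 3 groups, taken with their replicate numbers from the sample labels. The paper's methods name poly-A selection and a shorter treatment, whereas the labels name removal of ribosomal RNA and 3 days. According to the methods, the authors trimmed reads with Cutadapt and aligned them to susScr11 with STAR. The submitters' processing notes name Trimmomatic, HISAT2, StringTie and Sscrofa11.1. The counting program is not given in the sources used here. The deposited table holds counts without normalization, whole numbers in 19535 gene rows and 6179 circRNA rows, and expected counts of 9888 non-coding transcripts, which were not used. It also has 19 columns without a name or a value.

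The test was that of edgeR 4.0.16 under R 4.3.3 on gene counts (filterByExpr, TMM, quasi-likelihood, 3 groups in 1 fit, 6 residual degrees of freedom), after a check on simulated data. Fold limit and adjusted p follow the paper's methods, which used DESeq2, and DESeq2 1.42.0 was an alternative. The standard error is the log2 fold change divided by the square root of F. edgeR estimated a common biological coefficient of variation of 0.0602, and counting error therefore matters mainly for low genes such as DUSP2. Replicates differed by more than sampling noise (mean chi-square per gene 4.62 to 18.8). Exon lengths came from RefSeq on Sscrofa11.1 and joined the exons of all transcripts of a gene. Promoter windows, exon numbers and signatures came from a single RefSeq model per gene, with curated models before predicted ones. Alternatives are listed in the closing section. Named genes are all members, up to 4 genes of each list with the largest called change in bFGF against OIM and up to 2 in OIM against control (10 or more counts on average where the gene is higher), and the 5 nearest profiles of DUSP6, DUSP4 and DUSP1. Other genes, markers included, were named after their values were seen. The members and lists were chosen with earlier results of these data known.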

Additional observations from a re-analysis of the deposited data

Results flagged for a closer look

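Circular RNAs, which arise by back-splicing and were counted in rows of their own, were listed at 1 of the 10 loci. All 3 lie in DUSP16 on chromosome 5 of Sscrofa11.1 and had 0 counts in the 3 control libraries. A single count of 0 allows an expected count of up to 3 with 95% confidence. circRNA_4520 (59915033 to 59935574) had 4, 2 and 0 counts in OIM and 2, 0 and 2 in bFGF. circRNA_4519 (59915033 to 59916786) had 3, 3 and 0 counts in OIM and 2, 0 and 0 in bFGF. circRNA_4518 (59877187 to 59935574) had 3 counts in OIM replicate 3 and 0 elsewhere. The highest count was 4, that of circRNA_4520 in OIM replicate 1. These rows were flagged because their highest count exceeded that of control, and no difference between groups was tested.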

How the results depend on the processing

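The number of members called was recomputed with median-of-ratios factors, library totals alone, DESeq2, other filters, only the 2 groups compared, a replicate block, other fold limits, thinning to equal depth and each library left out. Of such counts, 108 were within 1.5 times the reported one and 6 were not. Without a fold limit, 2 members were called higher in OIM against control. With a fold limit of 1, 1 was called lower in bFGF against OIM and 0 against control, and with library totals alone 1 and 1. With single libraries left out, 1 to 2 were called lower in bFGF against control. Of the recomputed log2 fold changes of members, 496 kept their direction and call, 6 lost the call, 2 gained it and 6 changed sign, all of DUSP14: with library totals alone 0.034 in bFGF against OIM and 0.040 against control, and 4 of the fits of OIM against control with single libraries left out, which ranged from -0.045 to 0.094 over all 9. DUSP14 was never called. Of the counts over the pathway lists, 525 stayed within 1.5 times and 45 did not, most of them with another fold limit. With library totals alone, bFGF against OIM raised 5 genes of the stress kinase pathways in place of 3, lowered 2 of the ERK-induced genes in place of 4, and lowered 0 of the other dual-specificity phosphatases in place of 4. On CPM without the length, the nuclear share was 61.3% in control, 60.1% in OIM and 44.9% in bFGF, and the ERK-selective share was 65.0% in control and 77.4% in bFGF. Without the members most abundant over all libraries the shares moved to 28.8% and 24.9% (nuclear, control and OIM), and 76.7%, 74.1% and 88.8% (ERK-selective, control, OIM and bFGF). Without those most abundant in control, a setting chosen after seeing the data, they moved to 43.5%, 34.9% and 42.2% (nuclear, control, OIM and bFGF), and 67.1% and 91.8% (ERK-selective, control and bFGF).

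Equal replicate numbers did not pair the libraries: the 9 same-numbered pairs had correlations of -0.032 to 0.0035 in their deviations from the group means, and 0 of 9 libraries correlated best with its own number. With a replicate block, 4917 genes were called in bFGF against OIM in place of 4939, and no call of a member changed. Depth limits DUSP2, the only member under 100 counts in a library.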
